A study of Mus musculus with 12 samples.

Results

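The comparison described here set 3 libraries labelled as photothrombotic stroke with GDF10 siRNA against 3 adult control libraries, 6 of the 12 libraries in the series. Every gene was considered, and 17909 of the 23253 genes in the table had enough counts to be tested. All libraries were labelled as from C57BL/6 mice, adult in both groups and in stroke, and the tissue was labelled as cortical neurons purified by fluorescence-activated sorting. The other 6 libraries, 3 from stroke without the siRNA label and 3 labelled as P4 animals and not as adult, entered the fit to estimate the spread, and the stroke libraries were also compared directly. Strokes were made by giving rose bengal at 0.2 ml per 25 g of mouse and, after 5 min, illuminating the skull with cold light for 15 min, which leaves a lesion of about 2 mm. The time after stroke, the way the siRNA was delivered and whether the libraries of a group came from separate animals are not stated in the labels, so p-values measure the spread between these libraries, which may be technical. No control siRNA group was among the libraries analysed, so stroke and the siRNA label cannot be told apart against adult control. The deposited comparisons name the group only by stroke and GDF10, while the sample labels name the siRNA, and the group is therefore called siRNA-labelled here.

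GDF10 is a secreted ligand of the transforming growth factor beta (TGF-beta) family, which signals through paired serine/threonine kinase receptors to SMAD transcription factors. A small interfering RNA directs the cleavage of a matching transcript and so lowers its level. In the cortex, an ischaemic lesion is known to be followed by type I interferon signalling, by activation of microglia and astrocytes, and by loss and rewiring of neurons around the lesion. Interferons act on a promoter element, the interferon-stimulated response element, and induce antiviral proteins, antigen presentation genes and chemokines.

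Gdf10 itself was close to the limit of detection in the adult libraries. Adult control 1 to 3 held 15, 21 and 0 raw counts of it, and siRNA-labelled stroke 1 to 3 held 8, 7 and 1. The counts in the stroke libraries were 0, 5 and 0. Both groups held a library at or near 0, and the groups overlapped. The fitted log2 fold change of Gdf10 from adult control was -0.34 (SE 1.55, adjusted p = 0.979, edgeR quasi-likelihood test with Benjamini-Hochberg adjustment over all genes tested). Against stroke the fitted log2 difference of Gdf10 was 2.34 (adjusted p = 0.778, the same edgeR fit), with 16 counts in all in the siRNA-labelled libraries and 5 in the stroke libraries. At these counts a lower level of Gdf10 under the siRNA label was not detectable, and the transcript gives no check of that label.

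Total counts ran from 10517638 to 36009796 in the adult control libraries and from 16887717 to 33082818 in the siRNA-labelled ones. Adult control 3, the shallowest, stood apart from the other 5 libraries on the first principal component, which held 53.2% of the variance. Correlations of log2(CPM + 1) between libraries were 0.759 to 0.945 within adult control, 0.921 to 0.936 within the siRNA-labelled group and 0.747 to 0.966 between the groups. Xist, transcribed from the inactive X chromosome of female cells, was at 193 CPM in adult control 3 and at 2.03 to 15.2 CPM in the other 5, while the Y-linked Ddx3y was detected in all 6. CPM are counts put on one library size by TMM factors, and errors given with ± are SD over the 3 libraries of a group. The share of counts on Rn45s, the 45S ribosomal RNA precursor, also differed between libraries of one group: it was 0.427%, 2.08% and 0.0964% in adult control and 0.329%, 0.304% and 2.72% in siRNA-labelled stroke.

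Markers did not single out neurons. The 12 oligodendrocyte markers took 3.93%, 4.24% and 9.44% of counts in adult control and 10.6%, 9.88% and 6.61% in siRNA-labelled stroke, against 0.253% to 0.693% and 0.206% to 0.324% for the 15 pan-neuronal markers. Both shares overlapped between the groups. Homeostatic astrocyte markers took 0.649% to 0.912% in adult control and 0.28% to 0.372% in siRNA-labelled stroke. Homeostatic microglia markers took 0.0732% to 0.119% and 0.16% to 0.277%, and monocyte and neutrophil markers 0.00225% to 0.0141% and 0.0264% to 0.133%. These last 3 shares did not overlap between the groups, the astrocyte share being lower and the other two higher in siRNA-labelled stroke. The monocyte and neutrophil share did overlap once Lyz2 was left out, as given below. With 3 libraries a side an exact two-sided permutation test cannot give a p below 0.1, so no test is given for shares. In such bulk samples fewer cells of a type and less RNA per cell cannot be told apart. S100a9 and Camp, 2 of 13 monocyte and neutrophil markers, had no count in any siRNA-labelled library, and the endothelial tight junction gene Cldn5 had none in either group. The number of monocyte and neutrophil markers without a count was also 2 in adult control and 2 in stroke.

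**Figure D1:**
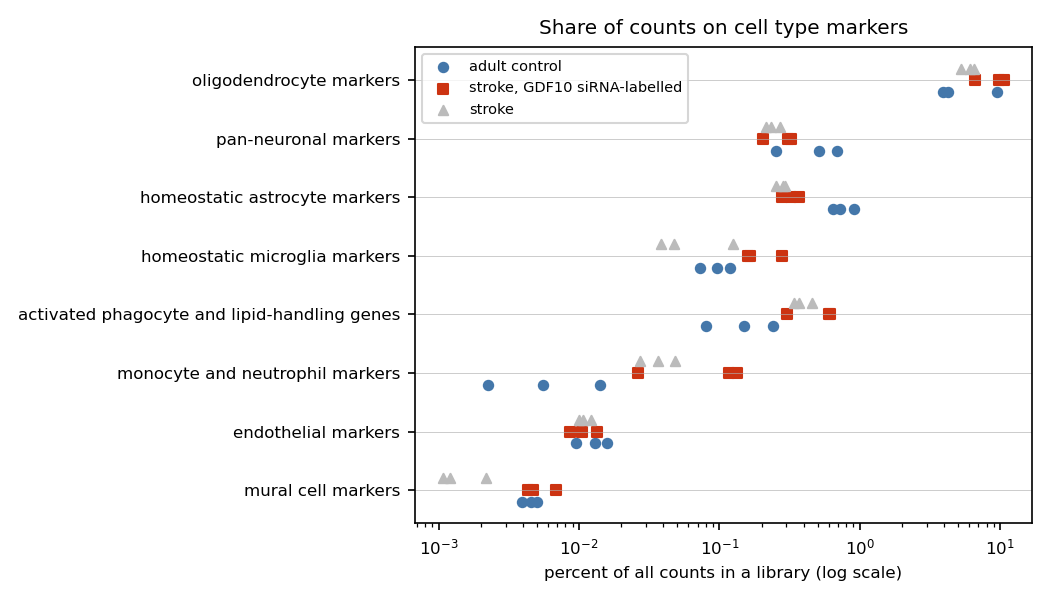
Share of all counts in a library that fell on each list of cell type markers (percent, log axis), with 1 point per library for adult control, siRNA-labelled stroke and stroke. Homeostatic astrocyte markers sit at 0.649% to 0.912% in adult control and at 0.28% to 0.372% in siRNA-labelled stroke, while oligodendrocyte and pan-neuronal markers overlap.

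Across all genes, 15 rose and 6 fell in siRNA-labelled stroke (edgeR quasi-likelihood test, adjusted p under 0.05), which is 0.0838% and 0.0335% of the genes tested. Those that rose were interferon-induced genes (Ifit1, Oasl2 and Cxcl10 among them), class I antigen presentation genes (H2-D1, H2-K1, B2m), complement C4b, the acute-phase gene Serpina3n, phagocyte genes (Gpnmb, Spp1, Mpeg1), and Zfp36, Piezo2 and Aldh1l2. Those that fell were the astrocyte transporters Slc1a2 and Slc4a4, the lipid receptor S1pr1, the kinesins Kif5a and Kif5c, and Rapgef4. For each of the 21 the adult and siRNA-labelled libraries were without overlap. Without overlap there were also 1138 genes higher (6.35%) and 800 lower (4.47%) over all genes tested, 10.8% in all. Where groups of 3 libraries do not differ, full separation has a probability of 0.1 in an exact two-sided permutation. Separation alone is therefore common and no sign of a change. At an unadjusted p under 0.05 there were 623 higher (3.48%) and 874 lower (4.88%), and DESeq2 called 182 higher (1.02%) and 151 lower (0.843%), all 21 among them. The median log2 fold change of all genes was -0.02. The number of calls rested on single libraries: without adult control 1 it was 6, and without siRNA-labelled library 1, 2 or 3 it was 9, 5 or 7. Ifit1, C4b, Oasl2 and Serpina3n were called whichever of the 6 libraries was left out, whereas Cxcl10, B2m and S1pr1 were called in 0 of these 6 fits. A fit to these 6 libraries alone called 0 genes, with 897 at an unadjusted p under 0.05.

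**Figure D2:**
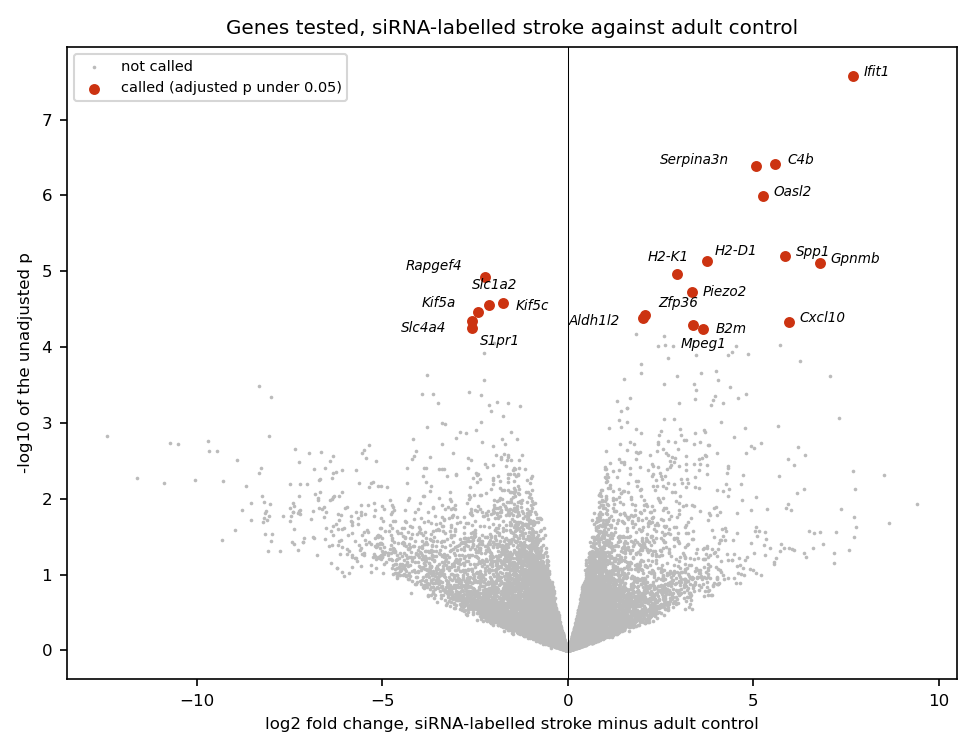
Fold change and unadjusted p of the genes tested, siRNA-labelled stroke minus adult control. The x axis is the log2 fold change, the y axis -log10 of the unadjusted p, and 20 of the 21 called genes are drawn in red and named. Ifit1 stands at 7.69 on the x axis, and the 6 called genes on the left lie between -2.59 and -1.74.

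Interferon-induced genes held the largest change. Ifit1 (chromosome 19, 34640889 to 34650009, GRCm38), an antiviral protein that binds foreign RNA caps, was at 0.793, 0.969 and 0 CPM in adult control and at 139, 198 and 82.9 CPM in siRNA-labelled stroke. Each siRNA-labelled library was far above all 3 adult ones (log2 fold change 7.69, SE 0.72, adjusted p = 0.000474, edgeR). Oasl2 (chromosome 5, 114896926 to 114912245), a 2'-5' oligoadenylate synthetase-like protein, was at 0.555, 5.02 and 2.05 CPM against 111, 107 and 79.3 CPM. The groups were again well apart (log2 fold change 5.25, SE 0.66, adjusted p = 0.00456, edgeR).

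Of the 30 interferon response genes 3 rose and 0 fell, and 23 were higher without overlap while none was lower without overlap. Their median log2 fold change was 2.56 (range -0.56 to 7.69), beside -0.02 for all genes. DESeq2 called 15 of them higher. Mx1, which RefSeq lists as a transcribed pseudogene in this mouse assembly, was at 0.476, 0.0248 and 0 CPM against 11.08, 10.8 and 7.71 CPM, without reaching the threshold (log2 fold change 5.73, adjusted p = 0.0606, edgeR). The 12 interferon-inducible GTPases, which attack the membranes around intracellular pathogens, had a median of 2.71 and all 12 fold changes above 0, Tgtp2 among them with no count in adult control (the median is the same with Tgtp2 at its lower bound). edgeR called 0 of these 12, with 6 at an unadjusted p under 0.05, all higher, while DESeq2 called 6 and limma-voom 0. Irgm2 was at 5.63, 4.05 and 3.76 CPM and at 34.5, 19.5 and 28.3 CPM (log2 fold change 2.61, adjusted p = 0.0606, edgeR). Gbp6 was at 1.37 ± 0.22 and 10.7 ± 3.2 CPM and Gbp7 at 12.22 ± 6.2 and 66.6 ± 31.8 CPM, both without overlap but with adjusted p of 0.101 and 0.27 in edgeR.

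**Figure D3:**
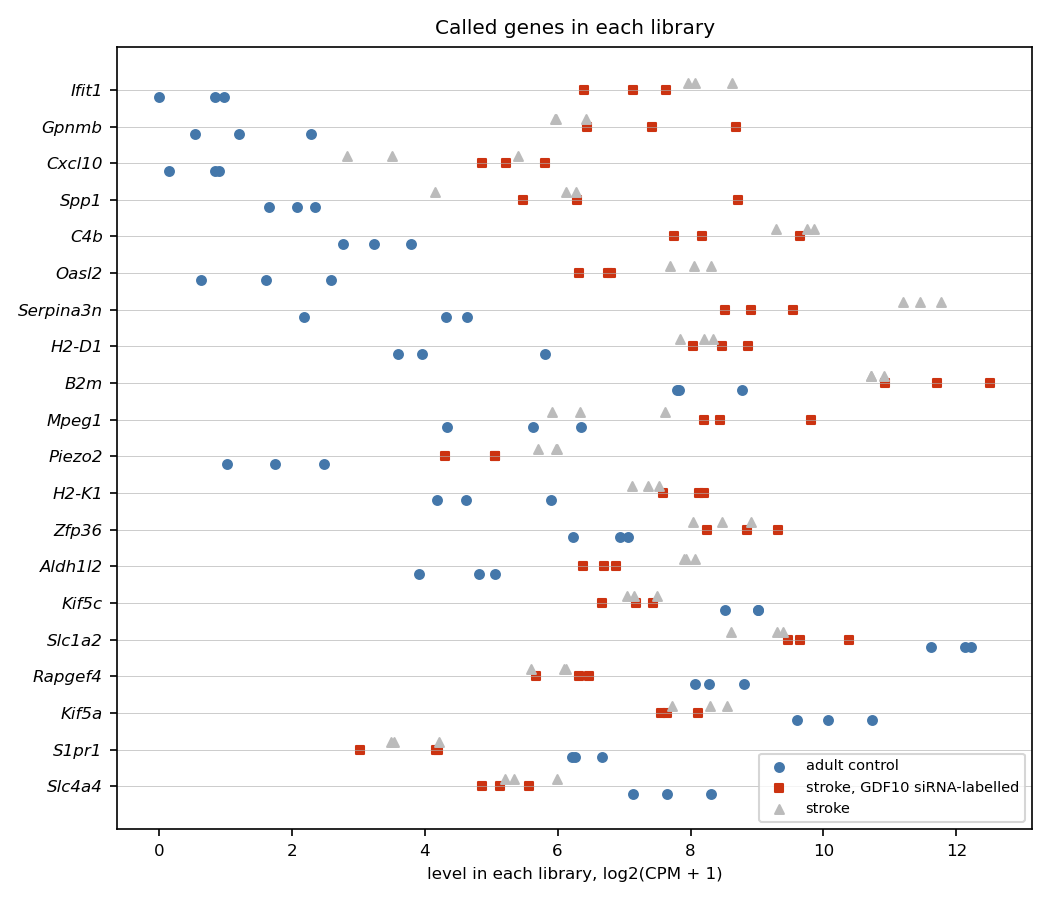
Level of 20 of the 21 called genes in every adult control, siRNA-labelled stroke and stroke library, as log2(CPM + 1), with 1 point per library. In all 20 the siRNA-labelled points lie apart from the adult ones, while they lie among, above or below the stroke points depending on the gene.

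Antigen presentation by MHC class I shows peptides of the cell's own proteins to CD8 T cells, and B2m is the shared light chain of these molecules. B2m was at 222, 225 and 436 CPM in adult control and at 3339, 5841 and 1935 CPM in siRNA-labelled stroke. All siRNA-labelled libraries were above the highest adult one (log2 fold change 3.65, SE 0.66, adjusted p = 0.0498, edgeR), with adult control 3 the highest of its group. The heavy chain H2-D1 (chromosome 17, 35263094 to 35267497) was at 14.6, 55.1 and 11.06 CPM and at 262, 353 and 467 CPM. H2-K1 was at 23.6, 58.8 and 17.2 CPM and at 192, 293 and 280 CPM. Adult control 2 was the highest of its group for both heavy chains, and neither overlapped (log2 fold changes 3.74 and 2.94, adjusted p = 0.0199 and 0.0212, edgeR). Reads of the closely related H2 genes may be split among them by the counting, so each value is uncertain. Of the 13 class I genes tested 3 rose and 0 fell, 8 were higher without overlap, and the median was 2.10. The immunoproteasome subunit Psmb8, at 0.842 ± 0.914 and 9.52 ± 5.63 CPM, was not called (adjusted p = 0.376, edgeR).

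Promoter sequence was available for 11 of the 15 genes that rose and for 4 of the 6 that fell. The core of the interferon-stimulated response element was searched as GAAANNGAAA on both strands, from 250 bases before to 50 after the start (RefSeq, GRCm38). It was found in 3.44% of all 32851 windows and in 3.79% of the 13163 tested genes with a window. Among genes that rose it was in 4 of 11 (36.4%), and among those that fell in 0 of 4. On the fixed lists it was in 12 of 21 interferon response genes (57.1%), in all 9 GTPases with a window and in 3 of 11 class I genes (27.3%). A match describes these letters and does not show a bound site. The 250 bases before the start are printed for the 4 genes that rose and hold a match, 5′ to 3′ on the gene's strand with the match in capitals (TTTC forms are matches on the opposite strand). Ifit1 lies at chr19:34640639-34640888 on the plus strand, Cxcl10 at chr5:92348890-92349139 on the minus strand, B2m at chr2:122147437-122147686 on the plus strand, and Spp1 at chr5:104434861-104435110 on the plus strand.
Ifit1: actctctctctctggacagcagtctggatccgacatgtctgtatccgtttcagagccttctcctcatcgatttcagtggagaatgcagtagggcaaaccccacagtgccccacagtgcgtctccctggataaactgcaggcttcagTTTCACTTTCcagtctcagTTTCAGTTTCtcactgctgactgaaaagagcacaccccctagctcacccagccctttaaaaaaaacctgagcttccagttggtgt
Cxcl10: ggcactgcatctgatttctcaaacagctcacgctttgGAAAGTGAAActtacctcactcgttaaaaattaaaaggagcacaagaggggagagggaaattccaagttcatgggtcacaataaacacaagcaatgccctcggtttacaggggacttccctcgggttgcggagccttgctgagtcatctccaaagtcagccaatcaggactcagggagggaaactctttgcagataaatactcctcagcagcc
B2m: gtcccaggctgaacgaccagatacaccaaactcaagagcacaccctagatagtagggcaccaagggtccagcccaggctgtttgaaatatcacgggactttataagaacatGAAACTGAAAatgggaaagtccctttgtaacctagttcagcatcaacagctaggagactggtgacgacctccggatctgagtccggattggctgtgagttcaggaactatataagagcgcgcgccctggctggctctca
Spp1: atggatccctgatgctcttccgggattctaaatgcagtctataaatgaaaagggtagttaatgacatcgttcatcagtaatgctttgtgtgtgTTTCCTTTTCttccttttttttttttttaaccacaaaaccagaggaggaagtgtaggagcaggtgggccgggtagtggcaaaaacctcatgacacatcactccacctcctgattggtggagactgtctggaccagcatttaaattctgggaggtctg
The pair of matches in Ifit1 lies within the last 120 bases before its start, whereas the match in Cxcl10 lies farther upstream. The match in Spp1 stands shortly before a long run of T.

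Complement and chemokine genes follow. C4b (chromosome 17, 34728139 to 34743902), a complement component that marks surfaces for uptake, was at 5.83, 12.9 and 8.44 CPM in adult control and at 214, 286 and 798 CPM in siRNA-labelled stroke. All adult libraries lay far below the siRNA-labelled ones, the highest being siRNA-labelled library 3 (log2 fold change 5.57, SE 0.65, adjusted p = 0.00245, edgeR). C4b has a near-identical copy in the mouse genome, so reads of both cannot be separated with certainty. Of the 13 complement genes tested 1 rose and 0 fell, with 5 higher without overlap and a median of 0.96. Fold changes were above 0 in 8 and below in 5. Among the latter were Serping1 at -2.13 and C4a, counted apart from C4b, at -1.79 on the log2 scale, neither called. C3, the central component of the cascade, was at 1.41 ± 0.88 and 12.24 ± 3.1 CPM (adjusted p = 0.27, edgeR), and its receptor C3ar1 at 29 ± 15 and 229 ± 214 CPM (adjusted p = 0.29, edgeR).

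Cxcl10, a chemokine that draws T cells through CXCR3, was at 0.872, 0.795 and 0.114 CPM in adult control and at 36.2, 54.8 and 28 CPM in siRNA-labelled stroke. All adult libraries were below 1 CPM, and the log2 fold change was 5.95 (SE 1.05, adjusted p = 0.0471, edgeR). It was the 1 gene of 16 chemokines that rose, and 0 fell, while 10 were higher without overlap and the median was 1.84. Ccl5, another T cell attractant, was at 0.188 ± 0.284 and 5.15 ± 1.12 CPM, the monocyte ligand Cxcl16 at 3.63 ± 0.72 and 24.6 ± 16.6 CPM, and the neutrophil attractant Cxcl2 at 7.86 ± 1.91 and 54.6 ± 50.2 CPM, none of them called. Among 20 cytokines and feedback genes of NF-kappaB, edgeR called 0, with 5 at an unadjusted p under 0.05 (4 higher and 1 lower), DESeq2 called 2 higher and limma-voom 0, and the median was 0.76. The cytokine Il1b was at 1.27, 4.47 and 0.456 CPM and at 18.3, 36.5 and 20.3 CPM, apart in every library but not called (adjusted p = 0.313, edgeR).

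Phagocyte genes rose beside these. Gpnmb, a membrane glycoprotein of lipid-loaded phagocytes, was at 1.31, 3.9 and 0.456 CPM in adult control and at 86, 409 and 169 CPM in siRNA-labelled stroke. Spp1, the secreted matrix protein osteopontin, was at 3.21, 2.14 and 4.11 CPM and at 77.4, 420 and 43.6 CPM. Mpeg1, the pore-forming perforin-2 of macrophages, was at 48.5, 80.7 and 19.3 CPM and at 345, 896 and 294 CPM. For all 3 genes siRNA-labelled library 2 was the highest, and no library overlapped (log2 fold changes 6.79, 5.86 and 3.37, adjusted p = 0.0199, 0.0199 and 0.0481, edgeR). Of 22 genes of activated phagocytes and lipid handling 2 rose and 0 fell, 15 were higher without overlap, and all 22 fold changes were above 0, with a median of 1.90. The lysosomal membrane protein Cd68 was at 13.5, 32.4 and 21.7 CPM and at 90.7, 271 and 118 CPM, just short of the threshold (adjusted p = 0.0606, edgeR).

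The microglial markers beside them moved unevenly. Of 17 homeostatic markers edgeR called 0, with 7 at an unadjusted p under 0.05, all higher, DESeq2 called 1 higher and limma-voom 0, and 9 were higher without overlap (median 1.40). The fractalkine receptor Cx3cr1 was at 56 ± 2.6 and 148 ± 77 CPM. P2ry12, a purine receptor of surveying microglia, was at 177, 129 and 353 CPM and at 174, 245 and 77.9 CPM, and Tmem119 at 13, 45.5 and 1.03 CPM and at 5.38, 11.4 and 33.3 CPM. Neither of these defining markers separated the groups. Lyz2, a lysozyme of myeloid cells, was at 33.9, 106 and 11.9 CPM and at 254, 1256 and 1249 CPM (adjusted p = 0.146, edgeR). Without Lyz2 the other monocyte and neutrophil markers took 0.00126% to 0.00222% of counts in adult control and 0.00214% to 0.00439% in siRNA-labelled stroke, which overlapped, and Chil3 of the same list had a fold change of -3.66 on the log2 scale (not called). Among 28 lysosome genes edgeR called 0, with 15 at an unadjusted p under 0.05, all higher, DESeq2 called 7 and limma-voom 2, and the median was 1.09. Whether the number of microglia or macrophages in the sort accounts for any of these values was not tested.

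**Figure D4:**
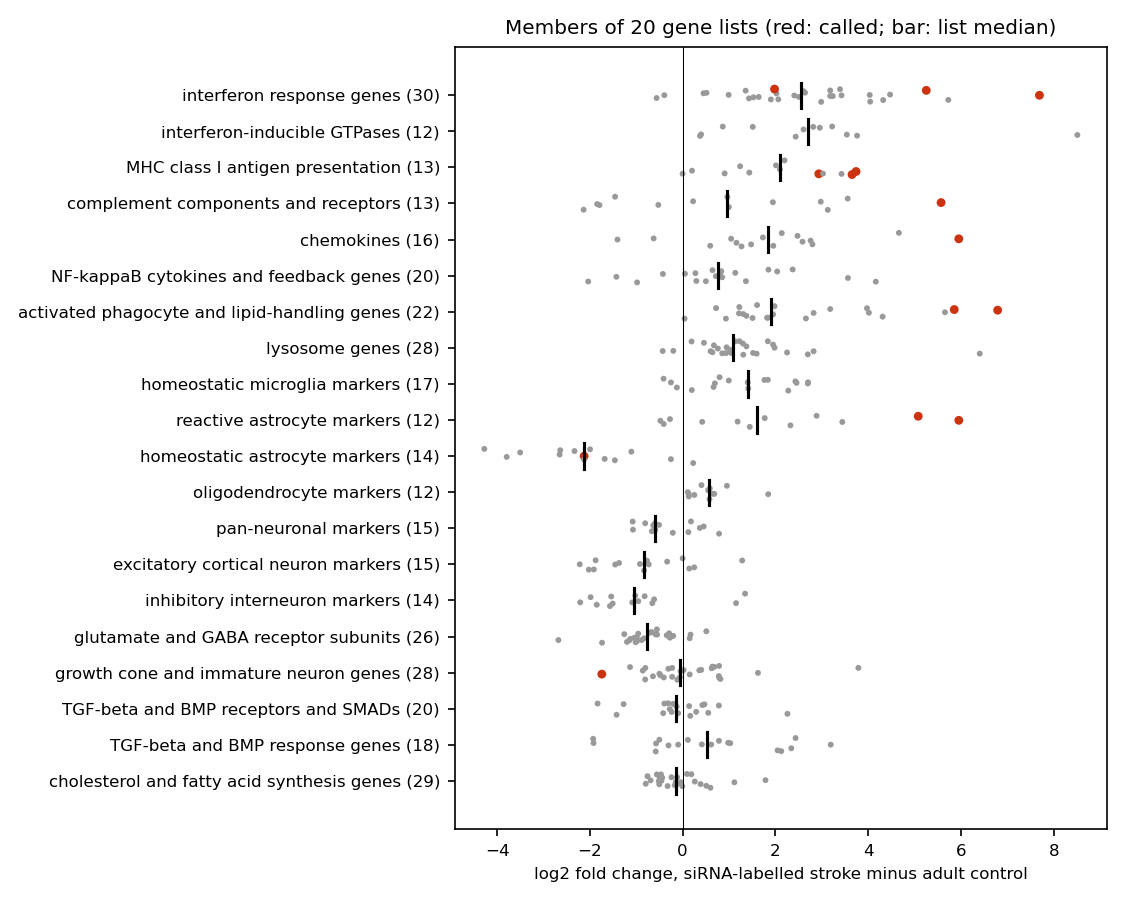
Log2 fold change, siRNA-labelled stroke minus adult control, of every tested member of 20 gene lists, with the number tested in brackets, called genes in red and the list median as a bar. The medians run from 2.71 for interferon-inducible GTPases to -2.12 for homeostatic astrocyte markers.

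Astrocyte genes went in opposite directions. Serpina3n (chromosome 12, 104406646 to 104414334), a secreted protease inhibitor of reactive astrocytes that injured oligodendrocytes are also known to make, was at 18.9, 23.9 and 3.54 CPM in adult control and at 364, 479 and 741 CPM in siRNA-labelled stroke. The lowest siRNA-labelled library was above all adult ones by a wide margin (log2 fold change 5.08, SE 0.59, adjusted p = 0.00245, edgeR). Its multigene family makes the assignment of reads uncertain. With Cxcl10 it made 2 of 12 reactive astrocyte markers that rose, with 0 that fell and a median of 1.61. Of the 12 fold changes 9 were above 0 and 3 below. The latter were Cp at -0.48, Steap4 at -0.41 and S1pr3 at -0.27 on the log2 scale, none called. Vim, an intermediate filament, was at 8.31 ± 7.21 and 91.3 ± 68.8 CPM (adjusted p = 0.0679, edgeR), and Gfap, the defining filament of reactive astrocytes, at 2.02, 2.36 and 8.33 CPM and at 14.3, 17.7 and 10.8 CPM (adjusted p = 0.462, edgeR).

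Slc1a2 (chromosome 2, 102658239 to 102790784), the main glutamate transporter of astrocytes, was at 4766, 3131 and 4491 CPM in adult control and at 1330, 710 and 805 CPM in siRNA-labelled stroke. Every siRNA-labelled library was below the lowest adult one (log2 fold change -2.12, SE 0.36, adjusted p = 0.0389, edgeR). Slc4a4, a sodium bicarbonate cotransporter, was at 200, 139 and 315 CPM and at 34, 46.7 and 28.1 CPM, and S1pr1, a receptor for sphingosine 1-phosphate, at 73, 75.4 and 101 CPM and at 17, 7.18 and 17.3 CPM. Both fell without overlap (log2 fold changes each -2.59, adjusted p = 0.0471 and 0.0498, edgeR). Of 14 homeostatic astrocyte markers 0 rose and 1 fell, Slc1a2, while 9 were lower without overlap and the median was -2.12. Others were the glutamate transporter Slc1a3 at 244 ± 83 and 61.2 ± 16.2 CPM (adjusted p = 0.0606, edgeR), the connexin Gjb6 at 49.8 ± 23.5 and 3.59 ± 2.22 CPM (adjusted p = 0.101, edgeR) and the neurotensin receptor Ntsr2 at 32.2 ± 12 and 5.11 ± 1.71 CPM (adjusted p = 0.136, edgeR). These examples are from the lower end of the list. Of the 14 fold changes 13 were below 0 and 1 above, Glul at 0.23 on the log2 scale. Aqp4 was at -0.25, and neither was called. The share of counts on the 14 markers was lower in each siRNA-labelled library, as given above, but Slc1a2 itself makes up much of it. Without Slc1a2 it was 0.361%, 0.378% and 0.274% in adult control and 0.244%, 0.217% and 0.240% in siRNA-labelled stroke, still without overlap but closer. The part of this share in the values of Slc1a2, Slc4a4 and S1pr1 was not tested.

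Genes of neuronal transport and signalling made up the rest of those that fell. Kif5a, a kinesin heavy chain that drives transport along axons, was at 1074, 1698 and 776 CPM in adult control and at 199, 187 and 277 CPM in siRNA-labelled stroke. Kif5c (chromosome 2, 49619286 to 49774778), its neuronal paralog, was at 518, 514 and 366 CPM and at 144, 101 and 173 CPM. Rapgef4, the cyclic AMP-activated exchange factor EPAC2, was at 308, 267 and 446 CPM and at 79.2, 88 and 49.9 CPM. None of these overlapped, and adult control 3 was the lowest adult library for both kinesins but the highest for Rapgef4 (log2 fold changes -2.42, -1.74 and -2.23, adjusted p = 0.0436, 0.0389 and 0.0212, edgeR).

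The neuronal markers themselves were not called. edgeR called 0 of 15 pan-neuronal markers, with 1 at an unadjusted p under 0.05, lower, and DESeq2 and limma-voom called 0 (median -0.59). Of 15 excitatory neuron markers edgeR called 0, with 6 at an unadjusted p under 0.05, all lower, DESeq2 called 1 lower and limma-voom 0 (median -0.83). Of 14 inhibitory interneuron markers edgeR called 0, with 5 at an unadjusted p under 0.05 (1 higher and 4 lower), DESeq2 called 1 lower and limma-voom 0 (median -1.05). Rbfox3, the nuclear marker NeuN, was at 44.3 ± 20.6 and 21 ± 6.9 CPM, the calcium kinase Camk2a at 427 ± 126 and 156 ± 64 CPM, the layer 4 transcription factor Rorb at 227 ± 141 and 55.8 ± 27.4 CPM, and the peptide Sst at 31.8 ± 15.1 and 6.88 ± 4.12 CPM. These 4 were lower without overlap but did not pass the test, and were picked from the lower members after their values were seen. Other members lay above 0 without being called, 5 of 15 pan-neuronal, 4 of 15 excitatory and 2 of 14 inhibitory markers, among them the tubulin Tubb3 at 0.79, the transcription factor Emx1 at 1.28 and the secreted protein Reln at 1.35 on the log2 scale. Snap25, a vesicle fusion protein, was at 3661, 1115 and 4116 CPM and at 1786, 1028 and 1421 CPM, and overlapped.

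On the lists of glutamate and GABA receptor subunits and of potassium, sodium and calcium channels, no gene passed the test in edgeR. Over all genes tested 51.0% had a fold change below 0. Of 26 glutamate and GABA receptor subunits 23 had fold changes below 0 (median -0.77), and edgeR called 0, with 8 at an unadjusted p under 0.05, all lower, DESeq2 1 lower and limma-voom 0. Of 25 potassium, sodium and calcium channels 22 were below 0 (median -0.54), and edgeR called 0, with 3 at an unadjusted p under 0.05, all lower, DESeq2 2 lower and limma-voom 0. The potassium channel Kcnd3 was tightly grouped at 81.4, 77.9 and 83.3 CPM and at 30.1, 35.1 and 33.9 CPM (log2 fold change -1.29, adjusted p = 0.151, edgeR). The AMPA receptor subunit Gria2 was at 1000.2 ± 442 and 496 ± 84 CPM and the GABA receptor subunit Gabra3 at 51.6 ± 25.5 and 15.5 ± 3.9 CPM. The pan-neuronal share of counts was 0.487% ± 0.221 and 0.279% ± 0.064, and its part in these values was not tested.

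Among myelin genes no marker was called. Of 12 oligodendrocyte markers all fold changes were above 0 (median 0.56), and edgeR called 0, with 1 at an unadjusted p under 0.05, higher, which DESeq2 and limma-voom called. That gene was Cldn11, the tight junction protein of myelin, at 1039, 818 and 642 CPM and at 2639, 3361 and 2983 CPM (log2 fold change 1.85, adjusted p = 0.0542, edgeR). Of 12 precursor and committed lineage markers edgeR called 0, with 4 at an unadjusted p under 0.05 (2 higher and 2 lower), DESeq2 and limma-voom called 0, and 5 fold changes were above 0 and 7 below (median -0.04). The ends of this list were Cspg4, a proteoglycan of precursors, at -1.28 on the log2 scale and Enpp6 at 2.22. Enpp6, a marker of newly forming oligodendrocytes, was at 192 ± 46 and 894 ± 282 CPM (adjusted p = 0.295, edgeR). Among 13 genes known to be raised in injured oligodendrocytes, C4b and Serpina3n rose and 0 fell, with a median of 1.26. The protease Klk6 was at 18.2 ± 7.1 and 102 ± 63 CPM (adjusted p = 0.333, edgeR). Of the 13 fold changes 11 were above 0 and 2 below. The latter were Serpina3m at -1.98 and Plin4 at -1.10 on the log2 scale, neither called.

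The TGF-beta pathway, to which GDF10 belongs, held no called gene. Of 23 ligands and antagonists edgeR called 0, with 3 at an unadjusted p under 0.05 (1 higher and 2 lower), and DESeq2 and limma-voom called 0 (median 0.11). Of 20 receptors and SMADs edgeR called 0, with 3 at an unadjusted p under 0.05 (2 higher and 1 lower), and DESeq2 and limma-voom called 0 (median -0.14). Of these 20 fold changes 8 were above 0 and 12 below, among the latter Eng at -1.83 and Bmpr1b at -1.42 on the log2 scale. The examples that follow are from the higher members. The type II receptor Tgfbr2 was at 16.2, 22.9 and 2.17 CPM and at 59.7, 87.4 and 51.8 CPM, and the inhibitory Smad7 at 50.1 ± 15.1 and 86.3 ± 7.2 CPM. Tgfbr2 was higher in each siRNA-labelled library yet far from the threshold (log2 fold change 2.26, adjusted p = 0.454, edgeR). Of 18 response genes edgeR called 0, with 3 at an unadjusted p under 0.05 (2 higher and 1 lower), DESeq2 called 1 in each direction and limma-voom 0 (median 0.52). Thbs1, a matrix protein that activates latent TGF-beta, was at 3.69 ± 3.53 and 33.1 ± 31.4 CPM, and Id4, an inhibitor of DNA binding induced by BMPs, at 6.18 ± 0.59 and 1.63 ± 0.25 CPM.

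Growth programmes held 1 called gene. Of 28 growth cone and immature neuron genes 0 rose and 1 fell, Kif5c, with a median of -0.05. The microtubule kinase Dclk1 was at 572 ± 219 and 261 ± 52 CPM, whereas Marcksl1, an actin regulator of growing processes, was at 22.7 ± 16.5 and 70.4 ± 15.7 CPM, neither called. Of 30 regeneration-associated genes edgeR called 0, with 13 at an unadjusted p under 0.05 (9 higher and 4 lower), DESeq2 called 3 higher and 1 lower, limma-voom 0, and the median was 0.11, also with Nts, which had no count in siRNA-labelled stroke, at its bound. The transcription factor Cebpd was at 0.872, 1.64 and 0 CPM and at 11.08, 18.9 and 10.5 CPM (adjusted p = 0.144, edgeR), and the adhesion molecule Chl1 at 509 ± 464 and 146 ± 39 CPM (adjusted p = 0.298, edgeR). Of 29 cholesterol and fatty acid synthesis genes edgeR called 0, with 1 at an unadjusted p under 0.05, higher, and DESeq2 and limma-voom called 0 (median -0.15).

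Of the other called genes, Zfp36, whose protein tristetraprolin speeds the decay of cytokine mRNAs, was at 74.5, 132 and 122 CPM in adult control and at 460, 636 and 303 CPM in siRNA-labelled stroke. It did not overlap (log2 fold change 2.09, SE 0.36, adjusted p = 0.0456, edgeR) and is also 1 of 24 genes known to be induced by tissue dissociation, of which 1 rose, 0 fell, 12 were higher and 2 lower without overlap (median 0.92). The lower pair were the heat shock proteins Hsp90aa1 and Hspa1b. Fos, an immediate early gene of that list, was at 155, 336 and 173 CPM and at 521, 745 and 458 CPM (adjusted p = 0.299, edgeR). The dissociation list took 0.302% to 0.538% of counts in adult control and 0.534% to 0.669% in siRNA-labelled stroke, and its part in Zfp36 was not tested. Piezo2, a mechanically gated channel, was at 4.6, 2.36 and 1.03 CPM and at 32.4, 18.7 and 32.1 CPM, and Aldh1l2, a mitochondrial folate enzyme, at 14, 32.1 and 27.3 CPM and at 82.2, 117 and 103 CPM. Both were higher in every siRNA-labelled library (log2 fold changes 3.36 and 2.04, adjusted p = 0.0308 and 0.0468, edgeR).

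Stroke without the siRNA label gives the second yardstick, and its libraries were set directly against the siRNA-labelled ones in the same fit. The labels number adult control and siRNA-labelled libraries 1 to 3 and stroke libraries 4 to 6, without saying what the numbers stand for. Any difference that goes with this numbering cannot be told apart from the siRNA label in this contrast. Only Gng4 of the 17909 genes was called between siRNA-labelled stroke and stroke (0.00558%). None of the 21 genes above was, although 8 had an unadjusted p under 0.05. The share of all genes tested at that level is not given for this contrast, so the 8 have no background. Of the 15 genes that rose, 7 had a mean between adult control and stroke and 8 had a mean above stroke. Serpina3n was at 2809, 3493 and 2344 CPM in stroke, above all siRNA-labelled libraries (siRNA-labelled minus stroke -2.45 on the log2 scale, unadjusted 95% interval -3.57 to -1.33, adjusted p = 0.379, edgeR). Aldh1l2 was at 237, 242 and 266 CPM in stroke (-1.30, interval -2.04 to -0.56), and Oasl2 at 317, 265 and 206 CPM (-1.41, interval -2.59 to -0.22). For these 3 genes the siRNA-labelled libraries lay wholly between adult control and stroke. The same held for Ifit1, at 248, 267 and 392 CPM in stroke (-1.11, interval -2.25 to 0.03). It also held for Piezo2, at 62.5, 62 and 51 CPM in stroke (-1.08, interval -2.14 to -0.01).

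Among phagocyte genes, Mpeg1 was at 79.5, 59 and 195 CPM in stroke, below each siRNA-labelled library (2.20 on the log2 scale, interval 0.99 to 3.42), and Spp1 at 68.6, 76.5 and 16.9 CPM, which overlapped them (1.74, interval 0.22 to 3.26). Gpnmb differed by 1.67 (interval -0.04 to 3.39). None of these 3 differences passed adjustment over all genes (adjusted p = 0.445, 0.636 and 0.678, edgeR), nor did any of the 22 genes of the phagocyte list, 9 of which had an unadjusted p under 0.05. The median siRNA-labelled minus stroke difference was 1.58 for the activated phagocyte list and 1.68 for homeostatic microglia markers, against -0.72 for interferon response genes and -0.76 for the GTPases. Neither an unadjusted share nor a median over all genes is given for this contrast. The 9 of 22 and these medians can therefore not be set against a background. The microglia share of counts was 0.0384% to 0.125% in stroke and 0.16% to 0.277% in siRNA-labelled stroke, and its part in these differences was not tested. The 3 stroke libraries all had a 45S share above 2%, as did 1 siRNA-labelled library, so this share moves with the contrast as well.

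For the antigen presentation and most of the lowered genes the interval of the difference from stroke included 0. H2-D1 differed by 0.36 (interval -0.71 to 1.43) and H2-K1 by 0.66 (interval -0.24 to 1.56) on the log2 scale. Kif5c differed by -0.11 (interval -0.72 to 0.49), S1pr1 by 0.11 (interval -0.83 to 1.05) and Rapgef4 by 0.24 (interval -0.47 to 0.94). Slc1a2, at 673, 388 and 628 CPM in stroke, was below every siRNA-labelled library (0.75, interval 0.02 to 1.49). Intervals of this width leave differences of up to about the stated bounds undetected, and do not show that the 2 stroke groups were alike.

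**Figure D5:**
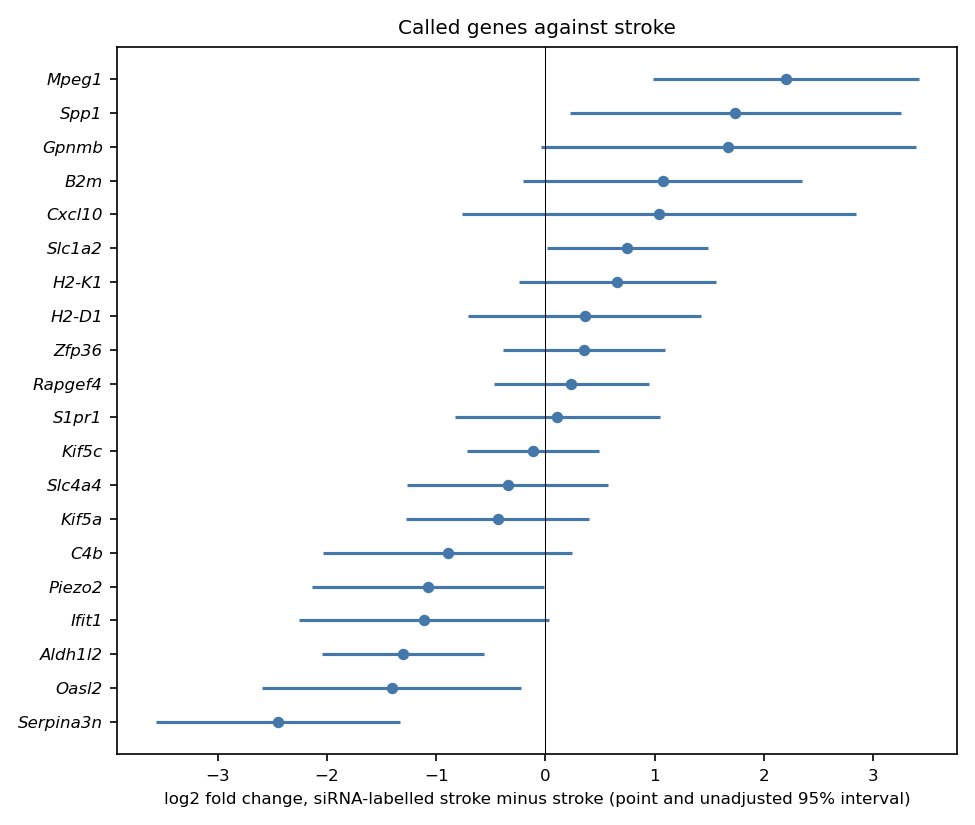
Difference of 20 of the 21 called genes between siRNA-labelled stroke and stroke, as log2 fold change with its unadjusted 95% interval. Mpeg1 is highest at 2.20 and Serpina3n lowest at -2.45, and none passes adjustment over all genes.

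The authors' deposited table gave a false discovery rate under 0.05 to 113 genes higher and 82 lower for the same pair of groups, and all 21 genes were among them. In the authors' deposited table the log2 fold change of Ifit1 was 7.68. Within libraries whose 45S share was below 1% (2 a group) and above 1% (1 a group), all 21 genes kept their direction. That outcome was fixed in advance, because none of the 21 overlapped between the groups, and it is no check on the 45S share. Ifit1 differed by 9.40 and 6.32 in these classes, Serpina3n by 5.66 and 4.95, and Slc1a2 by -2.25 and -1.96.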

How the data were processed

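RNA from sorted cortical cells was amplified (Ovation RNA-seq System v2) and read as 69 bp pairs, per the labels' protocols. CASAVA 1.8.2, edgeR and the build mm10 (GRCm38) are named in the submitters' processing notes; no aligner, counter, annotation or strand setting is given there, so antisense and overlapping genes are uncertain. The deposited table held raw read counts per gene, which were tested here. The authors' normalized counts, a signal deposited beside them, were not used. The authors' deposited log2 fold changes and p-values (false discovery rates) are quoted where named. Another 30 per-sample columns were not used.

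Counts were filtered with filterByExpr, scaled by TMM, and all 12 libraries fitted by the edgeR 4.0.16 quasi-likelihood method in R 4.3.3, with Benjamini-Hochberg adjustment over all 17909 genes and a two-sided threshold of 0.05. Each SE is |log2 fold change| / sqrt(F). Alternatives used DESeq2 1.42.0, limma 3.58.1 (voom), RLE factors, no filter, fewer libraries, a replicate block and each library left out. The tests were tried on simulated data first.

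Members and gene lists were chosen with earlier results of these data known. Genes named by rule were Gdf10, the 10 largest changes per direction among called genes of at least 5 CPM without overlap, and up to 3 called members per list, which gave 19 of the 21 called genes. Piezo2, Aldh1l2 and the examples that were not called were chosen after their values were seen. RefSeq gave positions for 22921 genes by ID or symbol. Samples were grouped by their labels, and the first P4 column is named P3. One called gene is not reported here and is left out of the figures, though it stays in the counts.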

Additional observations from a re-analysis of the deposited data

Results flagged for a closer look

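Gng4, a G protein gamma subunit, was the 1 gene whose change from adult control differed between siRNA-labelled stroke and stroke after adjustment over all genes. It was at 16.4, 13 and 20.3 CPM in adult control, at 23.7, 17.4 and 28 CPM in siRNA-labelled stroke and at 144, 137 and 219 CPM in stroke. The siRNA-labelled libraries overlapped adult control and lay below every stroke library. The difference of the changes was -2.85 on the log2 scale (adjusted p = 0.023, edgeR), and the change from adult control to siRNA-labelled stroke was 0.48 (adjusted p = 0.782, edgeR). Of the 10 G protein gamma subunits tested, Gng4 was the only one called between siRNA-labelled stroke and stroke. The libraries of these groups also differ in their numbering, as given above, so the siRNA label and the numbering cannot be told apart for Gng4.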

How the results depend on the processing

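All 21 called genes kept their direction in all 14 alternatives, though groups without overlap leave little room for another direction. None kept the call in all of them. The fit to the 6 libraries alone called 0 genes (0 higher, 0 lower). Ifit1, C4b, Oasl2 and Serpina3n lost the call in that fit only, being called in 13 of 14. The other called genes lost it in more, from 11 of 14 kept for Gpnmb down to 4 for S1pr1. Counts of calls moved most. They were 13 in all and 3 lower with RLE factors, 40 and 32 higher with no filter, 333 (182 higher, 151 lower) with DESeq2, 37 (25 higher, 12 lower) with limma-voom, and 40 (32 higher) with the class of the 45S share as a term, which was chosen after seeing the data. Leaving out 1 library gave 5 to 25 calls, with 5 to 19 higher and 0 to 6 lower. Ifit1, C4b, Oasl2 and Serpina3n kept the call in each of these 6 fits. Without adult control 3 there were 25 calls, 14 of them shared. With the replicate block there were 11 calls, 9 of them shared and 0 lower. Libraries with one number share only that number: the correlations of their deviations were 0.064, -0.191 and -0.336.

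Gdf10 ran from -0.877 to 0.212 without 1 library, above 0 without adult control 1 and siRNA-labelled library 3. The growth cone median ran from -0.285 to 0.197. Against stroke, the class term turned Kif5a to 0.011, Kif5c to 0.107 and Rapgef4 to -0.214, and leaving out 1 library gave S1pr1 -0.0932 to 0.415 and Kif5c -0.307 to 0.0661. None of these was called. Gdf10 had too few counts for a direction, and adult control 3, with 10517638 counts, is the shallowest of the 6 libraries.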
